A study of Caenorhabditis elegans with 7 samples.

Results

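The insulin-like peptide genes of Caenorhabditis elegans were compared between embryonic A-class motor neurons and all embryonic cells on Affymetrix C. elegans arrays. The members were the genes named ins followed by a number, together with daf-28, whose symbol was the only one in the annotation of at least 1 probe set. One probe set was taken per gene. Probe sets specific to a gene came first, then the brightest. The rule found 24 genes, 23 ins genes and daf-28, among 17118 genes measured in the same way. No sequence is shown, since the files used here give none.

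The A-class cells came from embryos that carried unc-4::GFP, in which the promoter of unc-4, a homeodomain gene, drives green fluorescent protein. This marker labels the DA and SAB motor neurons and the pharyngeal neuron I5. Embryos were dissociated, cells were cultured for 24 h, and GFP-positive cells were sorted to about 90% purity. The reference was made of all viable cells of the N2 wild type, cultured for the same time and sorted without a cell type marker, so it holds A-class cells among all others and carries no transgene. Each array received RNA amplified in 2 rounds from 100 ng, and there were 3 A-class and 4 reference arrays, labelled as separate replicates.

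C. elegans has an unusually large family of insulin-like genes. Their products are secreted peptides, made as precursors that are cut in the secretory pathway, and they act on a single known insulin receptor, DAF-2. Some peptides activate DAF-2 and others oppose it. Signalling from DAF-2 runs through a lipid kinase and protein kinases that keep the transcription factor DAF-16 out of the nucleus, and the pathway governs dauer arrest, growth, stress resistance and life span. Many members are made in neurons, and the gut also makes some.

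The sort was checked on unc-4 first. Its intensity was 94.5, 92.7, 111 and 90.1 on reference replicates 1 to 4 and 1289, 1155 and 1386 on A-class replicates 1 to 3, a log2 difference of 3.72. Of 8 markers of A-class motor neurons, 5 (62.5%) rose, against 2.21% of all genes, and cha-1, cho-1 and unc-5 did not pass. Summed intensities of the 8 were 5060 to 7033 in A-class arrays and 1270 to 1516 in the reference. The list includes unc-4 itself, and the study reports others of it, such as flp-13 and acr-12, as enriched in embryonic A-class neurons. The count is thus not an independent check. Of 58 measured markers of 7 other cell types, 0 passed by limma in the probe sets used, against 2.21% of all genes higher and 3.31% lower. Other probe sets of 2 muscle markers passed as lower. These were 1 of 7 of lev-11 (log2 -1.67, limma adjusted p = 0.00551) and 1 of 5 of unc-89 (log2 -1.53, limma adjusted p = 0.00545). The lev-11 probe set used was dim. At an unadjusted p under 0.05, 5 of the 58 were higher and 15 lower, against 18.1% and 15.9% of all genes. The median log2 differences of the 7 lists lay between -0.47 and 0.20, and that of all genes was 0.05. The coefficient of determination (R2) of log2 intensities was 0.893 to 0.947 among A-class arrays, 0.938 to 0.969 among reference arrays and 0.772 to 0.876 between the groups. Array medians lay between 66.9 and 70.1. The reference arrays came from 1 chip lot and the A-class arrays from another, so lot and group cannot be told apart.

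RMA intensity, the summarised brightness of a probe set, was used throughout, and it sets no level of one gene against another. A gene passed when limma gave an adjusted p under 0.01 and the difference was at least 1.7-fold, which is 0.77 on the log2 scale. Log2 differences are A-class minus reference, with the standard error (SE) of the fit. In RNA from a mixture of cells, fewer cells that express a gene and less RNA per cell cannot be told apart.

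Among the 24 insulin-like genes, ins-1 rose in A-class motor neurons, no member fell, and 23 did not pass. The member that rose is 4.17% of the family, and the background is 2.21% of all genes called higher and 3.31% called lower. At an unadjusted p under 0.05, 6 members (25%) were higher, against 18.1% of all genes, and 1 (4.17%) was lower, against 15.9%. In 5 members (20.8%) every A-class array lay above every reference array, against 17.1% of all genes. In 1 member, daf-28, every A-class array lay below every reference array, against 13.6%. The median log2 difference of the members was 0.15 and that of all genes 0.05. Above zero were 16 members and below it 8, against 9612 and 7506 of all 17118 genes. These shares lie close to those of all genes for members that were higher and under them for members that were lower.

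**Figure D1:**
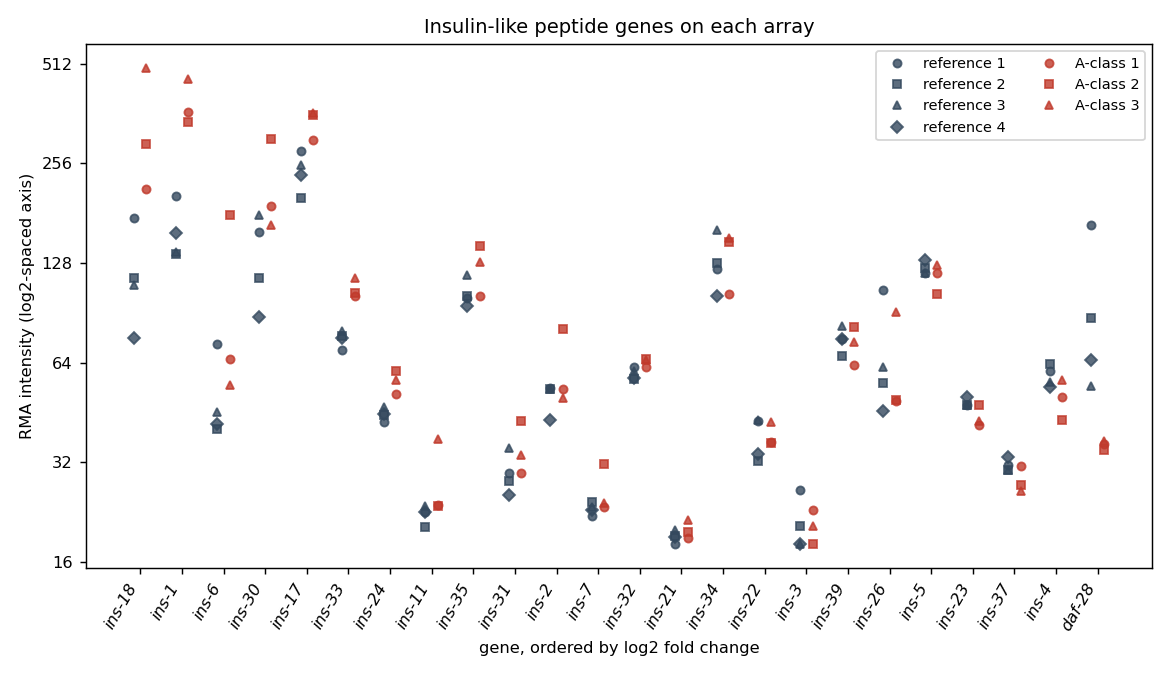
RMA intensity (log2-spaced axis) of the 24 insulin-like peptide genes on each of 4 reference arrays and 3 A-class arrays, 1 point an array, with genes ordered by log2 difference. All A-class points lie above all reference points for ins-18, ins-1, ins-17, ins-33 and ins-24, and below them for daf-28; heights do not compare between genes.

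ins-1 encodes the family member most often likened to human insulin, and it opposes DAF-2 signalling when it is supplied in excess. Its intensity was 203, 136, 138 and 157 on reference replicates 1 to 4, and 367, 342 and 459 on A-class replicates 1 to 3. Every A-class value was well above the highest reference value, and A-class replicate 3 was the highest of all. The means were 389 ± 61.3 (SD, n = 3) and 159 ± 31.3 (SD, n = 4), a 2.47-fold difference (log2 1.30, SE 0.177, 95% interval 0.90 to 1.71, limma adjusted p = 0.00283). The adjusted p moved to 0.0126 without reference replicate 2, 0.0116 without A-class replicate 1 and 0.0130 without A-class replicate 3, while the log2 difference lay between 1.08 and 1.51 under every alternative run.

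Of the fluidics modules of the array station, 2 held arrays of both groups. When module was a term in the fit, ins-1 differed by 1.24 on the log2 scale (limma adjusted p = 0.0190). Within module 1 alone (2 arrays a group) it differed by 1.15, and within module 2 (1 array a group, no test) by 1.43.

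ins-18, which also opposes DAF-2, had the largest log2 difference of the family. Its intensity was 175, 115, 110 and 76.0 on the reference arrays, and 214, 293 and 497 on the A-class arrays. The groups did not overlap, but A-class replicate 3 stood far above replicate 1, which lay not far over reference replicate 1. The log2 difference of 1.47 (SE 0.337, 95% interval 0.70 to 2.24) had a limma adjusted p of 0.0213 and did not pass. Within module 2 the log2 difference was 0.89.

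ins-17, a member linked to dauer formation, read 278, 200, 254 and 236 on the reference arrays and 302, 358 and 365 on the A-class arrays. All A-class arrays were above all reference arrays, by a narrow margin between A-class replicate 1 and reference replicate 1. The log2 difference was 0.50 (SE 0.145, limma adjusted p = 0.0482).

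ins-33, known for its part in larval germline proliferation, read 69.9, 76.8, 79.8 and 76.2 on the reference arrays and 102, 104 and 115 on the A-class arrays. Here the arrays of each group lay close together and the groups were clearly apart, at 75.7 ± 4.14 (SD, n = 4) and 107 ± 7.31 (SD, n = 3). The log2 difference of 0.50 (SE 0.110, limma adjusted p = 0.0184) was under the 1.7-fold limit, and its 95% interval of 0.25 to 0.75 ended below that limit.

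daf-28 encodes a DAF-2 agonist of the ASI and ASJ sensory neurons that prevents dauer arrest. It read 166, 87.0, 54.5 and 65.2 on the reference arrays and 36.3, 34.9 and 37.1 on the A-class arrays. The A-class values were all low and nearly equal, whereas the reference values were spread, with replicate 1 the highest. The log2 difference of -1.23 (SE 0.338, upper end of the 95% interval -0.46) had a limma adjusted p of 0.0402 and did not pass. Without reference replicate 1 it was -0.91 (limma adjusted p = 0.0182), and with log2 of the value plus 50 it was -0.67 (limma adjusted p = 0.110).

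Markers of ciliated sensory neurons were set beside daf-28. Of 13 measured, 0 passed, against 2.21% of all genes higher and 3.31% lower. Of the 13, 9 had a log2 difference above zero and 4 below, against 9612 and 7506 of all 17118 genes. The 13 had a median of 0.06. Their summed intensity was 920 to 1013 in A-class arrays and 962 to 1437 in the reference. Reference replicate 1, the high array for daf-28, was the highest reference array for 9 of the 13, against 24.6% of all genes.

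daf-7, a TGF-beta ligand of the ASI neurons, was 1 of the 4 markers below zero, against 9 above it. It was named after its value was seen. It read 502, 267, 281 and 219 on the reference arrays and 120, 139 and 169 on the A-class arrays (log2 -1.09, limma adjusted p = 0.0281), and it did not pass. The part of sensory neurons in the daf-28 difference was not tested.

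ins-6, an agonist that promotes exit from dauer, read 72.9, 40.4, 45.3 and 41.7 on the reference arrays and 65.7, 178 and 54.9 on the A-class arrays. Only A-class replicate 2 exceeded every reference array. The other 2 A-class arrays lay under reference replicate 1 and above reference replicates 2 to 4. The log2 difference was 0.83 (SE 0.400, limma adjusted p = 0.180), and it was 0.31 without A-class replicate 2 (limma adjusted p = 0.443). Over all alternatives it ran from 0.31 to 1.16, and it passed in none.

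Markers of ciliated sensory neurons on A-class replicate 2 were examined beside ins-6. It was the highest A-class array for 5 of the 13 markers, and for 39.8% of all genes. A-class replicates 1 and 3 were each the highest for 4 markers. Among the 5, daf-11, a guanylate cyclase, read 127 on replicate 2 and 57.1 and 61.7 on the other A-class arrays. tax-2, a subunit of the cyclic nucleotide-gated channel, read 36.0 there and 16.02 and 19.7 on the others, in a dim probe set. Both were picked after their values were seen, and their part in the ins-6 value was not tested.

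**Figure D2:**
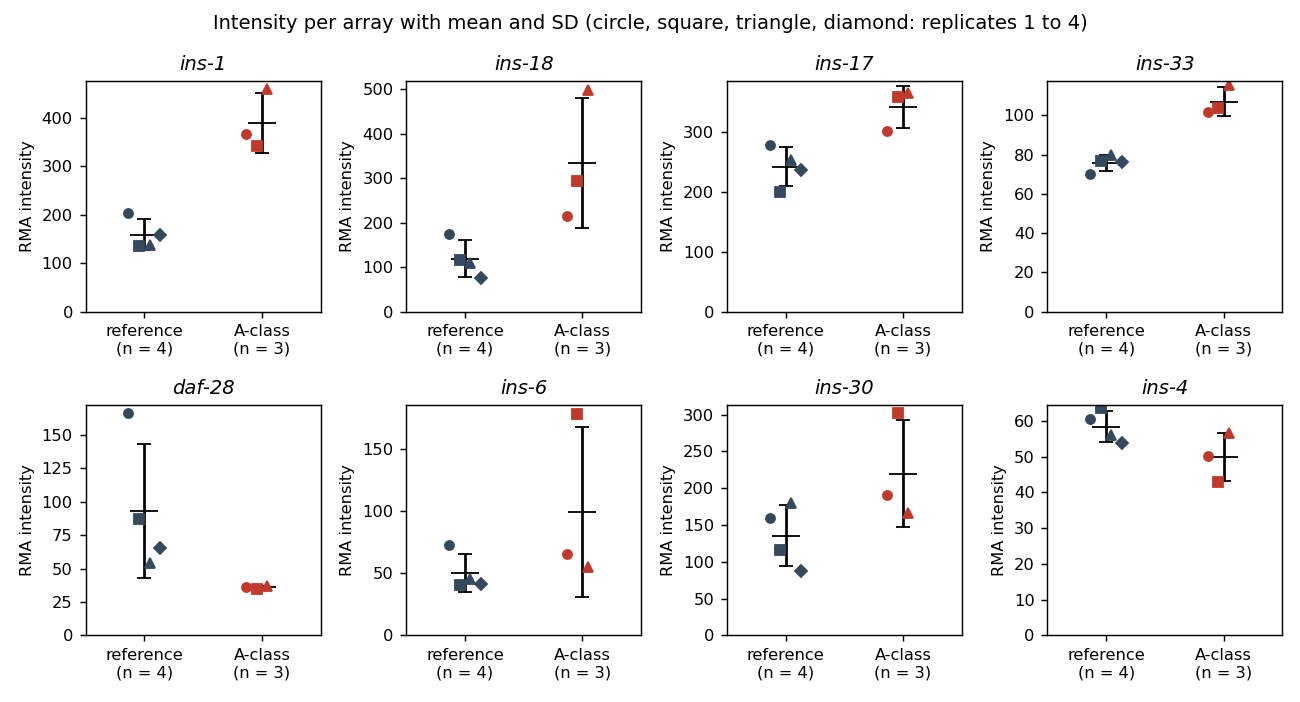
RMA intensity (linear axis from 0) of 8 insulin-like genes, 1 point an array, with horizontal bars for the mean and SD of 4 reference and 3 A-class arrays. The groups are apart for ins-1, ins-18, ins-17, ins-33 and daf-28, while for ins-6 and ins-30 A-class replicate 2 (178 and 303) lifts the A-class mean.

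Many members lie in clusters on the chromosomes. In the RefSeq annotation of WBcel235 the family has 40 genes, 39 of them protein-coding and 1, ins-38, a pseudogene. When genes with at most 5 protein-coding genes between them are joined, clusters of 7 on chromosome I, 6 on chromosome II and 3 on chromosome III hold most of the clustered members measured. No member of a cluster passed.

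The chromosome II cluster runs from ins-2 to ins-6 and ends with ins-20, and 5 of its 6 genes were measured. Its median log2 difference was -0.01, and apart from ins-6 the values lay near zero. ins-2 read 53.7, 53.3, 53.3 and 42.8 on the reference arrays and 53.3, 81.1 and 50.03 on the A-class arrays (log2 0.25). As for ins-6, A-class replicate 2 was the high array and the other 2 lay within the reference.

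The agonist ins-4 read 60.4, 63.5, 55.9 and 53.8 on the reference arrays and 50.2, 43.0 and 56.6 on the A-class arrays (log2 -0.23, limma adjusted p = 0.245). Its groups overlapped, and A-class replicate 2, high for ins-6 and ins-2, was the lowest here. ins-3, another agonist, read 26.4, 20.5, 18.2 and 18.1 on the reference arrays and 23.0, 18.1 and 20.5 on the A-class arrays (log2 -0.01). ins-5 read 119, 124, 119 and 131 on the reference arrays and 119, 103 and 127 on the A-class arrays (log2 -0.09). The groups overlapped for each of these 3 genes, and A-class replicate 2 was the lowest A-class array for all of them.

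In the chromosome I cluster 3 of 7 genes were measured. ins-30 read 159, 115, 179 and 87.7 on the reference arrays and 191, 303 and 166 on the A-class arrays. The groups overlapped, with A-class replicate 2 above all other arrays, and the log2 difference of 0.71 (SE 0.289, limma adjusted p = 0.126) was 0.45 without that array. ins-24 read 42.5, 44.4, 46.97 and 44.7 on the reference arrays and 51.3, 60.2 and 56.6 on the A-class arrays. Its groups were apart by a small margin, and the log2 difference was 0.33 (SE 0.110, limma adjusted p = 0.0769). A second probe set of ins-24, not specific to it by its type, differed by 0.67 (limma adjusted p = 0.0794).

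ins-26, the last of this cluster, read 106, 55.4, 62.2 and 45.8 on the reference arrays and 48.9, 49.2 and 91.1 on the A-class arrays. One array in each group was high, and the groups overlapped throughout (log2 -0.09, SE 0.321). Its 95% interval of -0.82 to 0.65 leaves a 1.7-fold fall possible.

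All 3 genes of the chromosome III cluster were measured, and their log2 differences lay between -0.14 and 0.07. ins-21 read 18.1, 19.2, 19.9 and 19.05 on the reference arrays and 18.9, 19.8 and 21.4 on the A-class arrays. ins-22 read 42.7, 32.4, 43.0 and 33.9 on the reference arrays and 36.7, 36.6 and 42.4 on the A-class arrays. ins-23 read 47.5 on 3 reference arrays and 50.2 on the other, and 41.3, 47.5 and 42.6 on the A-class arrays. None of the 3 separated the groups.

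ins-7, ins-11 and ins-31 were each the single measured member of a smaller cluster. ins-7, an agonist made in the intestine, read 21.9, 24.2, 23.4 and 23.0 on the reference arrays and 23.4, 31.6 and 24.0 on the A-class arrays (log2 0.17). ins-11, an intestinal member known from responses to bacterial infection, read 22.6, 20.4, 23.6 and 22.6 on the reference arrays and 23.7, 23.6 and 37.6 on the A-class arrays (log2 0.31). ins-31 read 29.7, 28.1, 35.2 and 25.5 on the reference arrays and 29.7, 42.7 and 33.7 on the A-class arrays (log2 0.25). In each of them 1 A-class array was high and the others were at the level of the reference.

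The remaining members were ins-32, ins-34, ins-35, ins-37 and ins-39, none of which lies in a cluster. The log2 difference of ins-35 was 0.26, that of ins-32 was 0.12, that of ins-34 was 0.07, that of ins-39 was -0.05 and that of ins-37 was -0.15. Their groups overlapped in every case, with limma adjusted p from 0.256 for ins-35 to 0.841 for ins-34.

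**Figure D3:**
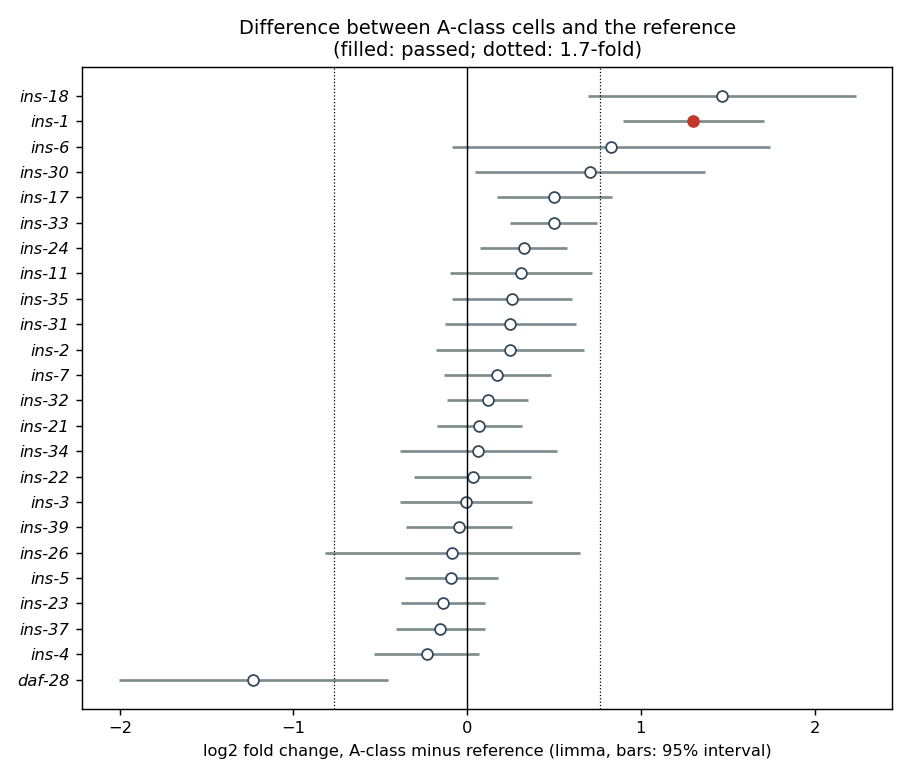
Log2 difference, A-class minus reference, of the 24 insulin-like genes with 95% intervals from limma; the filled point passed and dotted lines mark 1.7-fold. The points run from 1.47 for ins-18 to -1.23 for daf-28, and ins-1 at 1.30 is the filled point.

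The precision of the members differed. The SE of the log2 difference ran from 0.102 to 0.400 with a median of 0.148. Of the 23 members that did not pass, 17 had a 95% interval that lay inside 1.7-fold in both directions, and 6 had an interval that reached beyond it. Thus for most of the family a change of 1.7-fold in intensity lay outside the interval. For ins-18, ins-6, ins-30, ins-17, ins-26 and daf-28 it did not. The 17 include all 7 members in the dimmest 30% of probe sets, where a narrow interval says little of the transcript.

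Dim signals also limited part of the family. In 7 members the mean intensity was among the dimmest 30% of probe sets, under 43.9, and their log2 differences lay between -0.15 and 0.31. These were ins-3, ins-7, ins-11, ins-21, ins-22, ins-31 and ins-37. In 11 members (45.8%) some arrays held equal values within a relative tolerance of 1e-06, against 37.6% of all genes, and in 9 of them an A-class value equalled a reference value. Such members were found among the dim ones, such as ins-3, and among brighter ones, such as ins-5 and ins-35. The summed intensity of the family was 2158 to 2744 on the A-class arrays and 1613 to 2108 on the reference arrays, so the groups did not overlap in this sum, which the brighter members dominate.

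The receptor and the proteins that relay its signal were measured on the same arrays. Of 13 genes of the insulin receptor pathway, 0 passed in either direction, against 2.21% of all genes higher and 3.31% lower. At an unadjusted p under 0.05, 3 (23.1%) were higher and 0 lower, against 18.1% and 15.9% of all genes. Their median log2 difference was 0.29, and that of all genes 0.05. daf-2, the receptor, differed by 0.03, but all 4 of its probe sets were among the dimmest 30%, so the arrays say little of its level. Downstream of it, age-1, the catalytic subunit of the lipid kinase, differed by 0.31 (limma adjusted p = 0.174) in the probe set used. Its other probe set, a dim one, differed by 0.66 (limma adjusted p = 0.0231). The protein kinase akt-1 differed by 0.29 (limma adjusted p = 0.458) in the probe set used and by -0.86 (limma adjusted p = 0.0462) in its other one, so its direction is not settled. daf-16, the transcription factor, differed by -0.24 (limma adjusted p = 0.485) in the probe set used. Its 4 probe sets ran from -0.57 to 0.25, and none passed.

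par-5, a 14-3-3 protein that binds DAF-16, read 2443, 2277, 2094 and 2148 on the reference arrays and 3731, 3939 and 3556 on the A-class arrays. Its groups were far apart, and its log2 difference of 0.74 (SE 0.111, limma adjusted p = 0.00403) ended just under the 1.7-fold limit at 1.67-fold. Of its 3 probe sets, 1 of the others passed at 0.88 (limma adjusted p = 0.00744).

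Genes that cut, package or release peptides were also examined, since the insulin-like precursors need them. Of 10 genes, unc-31 rose and bli-4 fell (10% each), against 2.21% of all genes higher and 3.31% lower. The median log2 difference of the 10 was -0.05. unc-31, the CAPS protein needed for release from dense-core vesicles, read 38.9, 41.9, 28.5 and 35.6 on the reference arrays and 78.6, 126 and 69.4 on the A-class arrays. Every reference value lay under 43.9, the bound of the dimmest 30% of probe sets. The groups were apart, at log2 1.30 (SE 0.224, limma adjusted p = 0.00706). Without any 1 of the 7 arrays it no longer passed, with limma adjusted p from 0.0113 to 0.0219.

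bli-4, a proprotein convertase known for its part in making the cuticle, read 178, 167, 152 and 152 on the reference arrays and 81.8, 95.6 and 56.5 on the A-class arrays. All A-class arrays were lower, at log2 -1.09 (SE 0.183, limma adjusted p = 0.00643), and 5 of its 9 probe sets passed as lower. The probe set used passed without A-class replicate 2, and without any other single array its limma adjusted p was between 0.0124 and 0.0262. When fluidics module was a term in the fit, the limma adjusted p was 0.0417 for unc-31 and 0.0373 for bli-4.

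The neuronal convertase egl-3 differed by -0.17 (limma adjusted p = 0.682) and the carboxypeptidase egl-21 by 0.43 (limma adjusted p = 0.252). sbt-1, the 7B2 chaperone of EGL-3, read 1355, 736, 1055 and 629 on the reference arrays and 1814, 1595 and 2404 on the A-class arrays. Its groups were apart, and the log2 difference of 1.08 had a limma adjusted p of 0.0300.

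Of 10 measured genes known as DAF-16 targets, icl-1 fell (10%), against 3.31% of all genes. In the probe sets used the others did not pass, and the median log2 difference of the 10 was -0.17. lea-1 differed by -0.45 (limma adjusted p = 0.298) in the probe set used. Its 6 probe sets ran from -1.55 to 0.25, and 1 passed as lower. icl-1, the glyoxylate cycle enzyme, read 458, 482, 584 and 447 on the reference arrays and 129, 208 and 74.7 on the A-class arrays. Of the 3 icl-1 probe sets, 2 passed as lower. In the probe set used every A-class array was far below the reference (log2 -1.96, SE 0.303, limma adjusted p = 0.00463). Its limma adjusted p was 0.0187, 0.0156 and 0.0135 without reference replicates 2, 3 and 4 in turn, and 0.0184 without A-class replicate 1. It was 0.0360 when fluidics module was a term in the fit, 0.0146 with the hybridization day as a random block and 0.0117 for the brightest of its 3 probe sets, so icl-1 did not pass in these. sod-3, the superoxide dismutase often read as a DAF-16 reporter, read 33.9, 39.4, 44.7 and 39.1 on the reference arrays and 30.2, 40.9 and 36.1 on the A-class arrays, and its groups overlapped in a dim probe set.

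**Figure D4:**
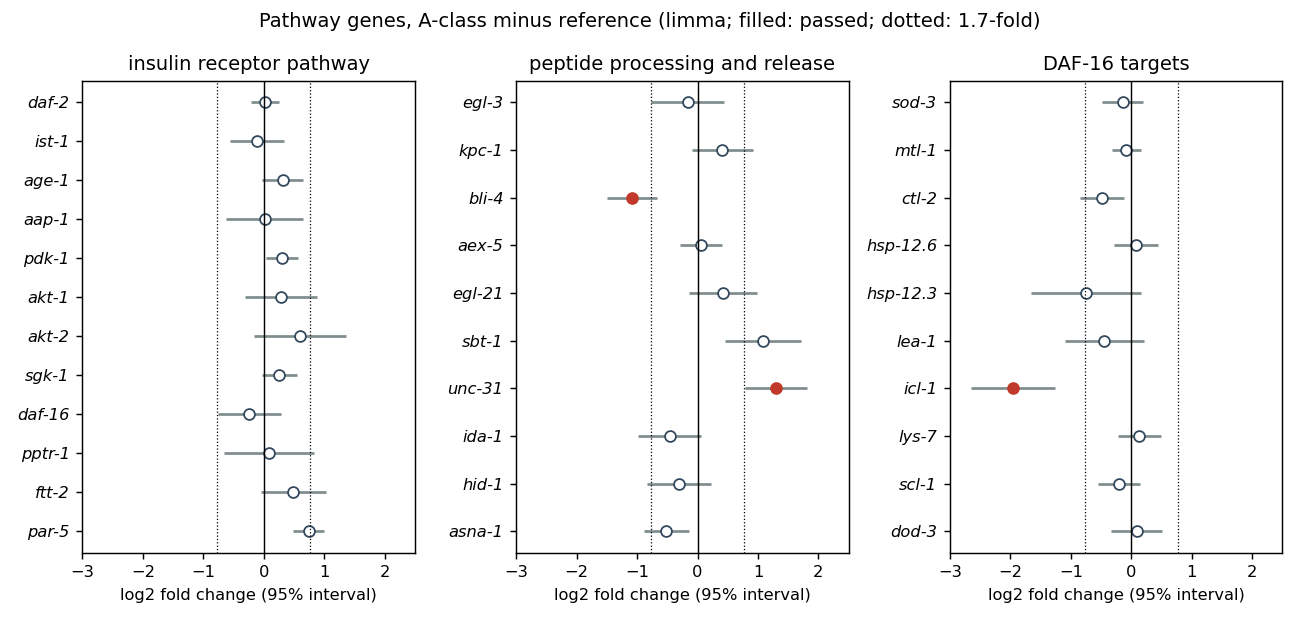
Log2 difference, A-class minus reference, with 95% intervals from limma, of 12 of the 13 insulin receptor pathway genes, 10 peptide processing and release genes and 10 DAF-16 targets; filled points passed and dotted lines mark 1.7-fold. The filled points are unc-31 at 1.30, bli-4 at -1.09 and icl-1 at -1.96.

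**Figure D5:**
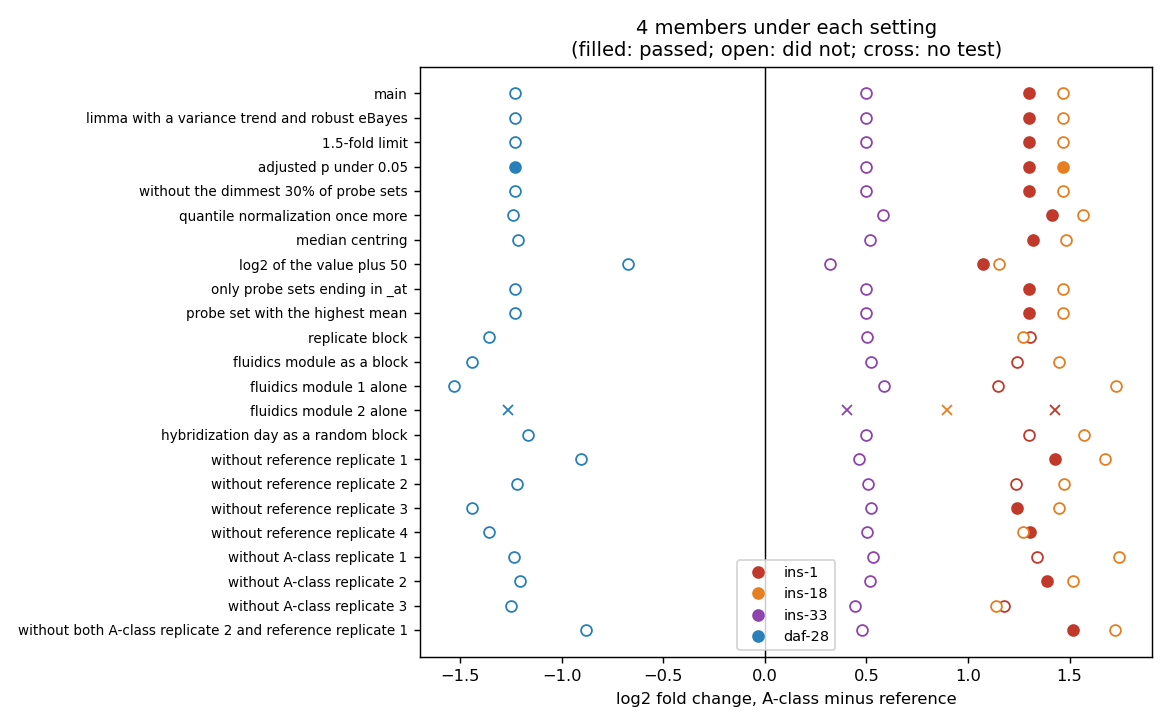
Log2 difference, A-class minus reference, of ins-1, ins-18, ins-33 and daf-28 (x axis) under each way of processing the values (rows), with filled points where the gene passed, open points where it did not and crosses where there was no test. ins-1 stays between 1.08 and 1.51, and each of the 4 genes keeps its sign in every row.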

How the data were processed

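RNA from 3 A-class and 4 reference samples was hybridised to Affymetrix C. elegans arrays. The authors deposited RMA (robust multi-array average) intensities on a linear scale, which carry background correction, quantile normalization and summary over the probes of a set. Neither the RMA version nor the set of arrays it was run on is known from the sources. The number of arrays limits the precision.

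Log2 of the intensity was fitted by limma 3.58.1 in R 4.3.3 with the group as the term, and p-values were adjusted by Benjamini-Hochberg over 22548 probe sets. The study's methods give no limits for this comparison, so an adjusted p under 0.01 and 1.7-fold were used. Genes were named through the platform annotation (20766 probe sets with 1 symbol, 887 with several, 895 with none), giving 17118 genes. RefSeq gave 40 family genes, of which 16 were not analysed here. RefSeq served for names and gene order, and no coordinates are given since the build of the array is not named. The test was checked on simulated data with known changes, in 5 runs. It called 36.2% of 500 true 2-fold changes and 82.8% of 500 true 4-fold changes, with 7 false calls. Many true 2-fold changes would therefore not pass at these limits. Members, lists and limits were chosen with earlier results of these data known. Every member is named. Values by array are given for members that passed in any setting, stood at either end or lay in a cluster, and genes of the receptor pathway and processing lists that passed are named with daf-2, age-1, akt-1, daf-16, egl-3, egl-21 and unc-4. A further gene of the pathway list is counted but not reported here. Genes named beyond these (daf-7, daf-11, tax-2, lev-11, unc-89, cha-1, cho-1, unc-5, flp-13, acr-12, lea-1, par-5, sbt-1, icl-1, sod-3, ins-17, ins-33 by array) were picked after their values were seen. Alternatives covered the limits, scaling, probe set choice, blocks and left-out arrays.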

Additional observations from a re-analysis of the deposited data

Results flagged for a closer look

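For 2 members 1 reference array lay far from the other 3 by Dixon's ratio on log2 intensity. ins-2 read 42.8 on reference replicate 4, the lowest of its group, where the others lay between 53.3 and 53.7. ins-23 read 50.2 on reference replicate 4, the highest of its group, where the others read 47.5, equal to one another. Of 47 genes tested in the reference group, 2 stood out in this way, and chance gives about 1 in 20 (2.35). The A-class group, with 3 arrays, was not tested.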

How the results depend on the processing

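Of the 24 insulin-like genes, 13 kept their sign in every alternative run for them (all 22 for 11 members, 20 for ins-11 and 21 for ins-31, which some filters left out) and 3 changed their call in at least 1 (ins-1, ins-18 and daf-28). No call changed direction. The count of members higher, 1 (ins-1), was 2 at an adjusted p under 0.05 (with ins-18) and 0 with the replicate block, with the fluidics module as a block, within module 1 alone and with the hybridization day as a random block, and 0 to 1 with 1 array left out. The count lower, 0, was 1 at an adjusted p under 0.05 (daf-28). The limma adjusted p of ins-1 ran from 0.00170 to 0.123 over the alternatives, the latter within module 1 alone, where 0 genes of 17118 passed. The median log2 difference of 0.15 was 0.25 without the dimmest 30% of probe sets and 0.35 within module 1 alone, and 0.080 to 0.25 with 1 array left out, 0.25 being without A-class replicate 1.

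The count of receptor pathway genes higher, 0, was 1 (par-5) at 1.5-fold and after quantile normalization once more, and 0 to 1 with 1 array left out, 1 being without reference replicate 1. Of processing genes, the count higher, 1, was 2 at an adjusted p under 0.05 (with sbt-1) and 0 with log2 of the value plus 50, both blocks, module 1 alone and the day as a random block, and 0 in each of the 7 fits with 1 array left out. The count lower, 1, was 0 in those same settings, after quantile normalization and with the probe set of highest mean, and 0 to 1 with 1 array left out. An alternative added after the data were seen left out A-class replicate 2 and reference replicate 1 together and gave 0 for both processing counts, 1.51 for ins-1 and -0.88 for daf-28. The cause of these changes was not tested.

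The replicate numbers are shared by both groups but do not pair the arrays. Same-numbered arrays correlated in their deviations at 0.03, -0.12 and -0.05, and no A-class array correlated best with its own number. With the replicate block, which rests on 6 arrays, ins-1 differed by 1.30 (limma adjusted p = 0.0222) and icl-1 by -2.003 (limma adjusted p = 0.0241). The calls over all genes, 378 higher and 566 lower, became 69 and 78 with this block, 73 and 81 with the module block, 141 and 182 with the day as a random block, 187 and 252 with log2 of the value plus 50, 685 and 1121 at an adjusted p under 0.05, and 135 to 356 higher and 173 to 543 lower with 1 array left out. After quantile normalization 483 were higher and 501 lower, a larger share of higher calls. A fit with the chip lot as a block was not run, since each lot holds 1 group.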

Other observations

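Which array read highest was not even across the family. Among A-class arrays, replicate 1 was the highest for 2 of 24 members, replicate 2 for 10 and replicate 3 for 12, against 27.4%, 39.8% and 30.5% of all genes. Among reference arrays, replicates 1 to 4 were the highest for 9, 2, 10 and 3 members, against 24.6%, 13.5%, 29.98% and 22.5% of all genes. The median deviation of the members from the reference mean was 0.01, 0.19 and 0.17 on the log2 scale for A-class replicates 1 to 3.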
